A study of Rattus norvegicus with 4 samples.

Results

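The Rab genes measured in these cells are the 54 rat genes whose symbol is Rab followed by a number and at most 1 letter from a to d and that have a probe on the array, out of 16581 named genes. The gene table holds 58 such symbols, and no probe was named for Rab22a, Rab37, Rab42 and Rab44. The 54 genes are read by 70 probes, with 13 genes read by several. Of the 54, 29 belong to lists of Rab proteins of early endosomes, late endosomes and lysosomes, recycling endosomes, or phagosomes and autophagosomes. The other 25 are known mainly from the endoplasmic reticulum, the Golgi, exocytosis or other sites, so the genes are called Rab genes here and not endosomal genes.

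The samples were 4 cultures of NR8383, an alveolar macrophage line first obtained by washing the lung of a normal rat, described as being at 20 passages. The nanotube was NRCWE055, single-walled and pristine, at a dose of 11 cm2 per cm2, and exposure lasted 4 h. Total RNA of each culture was read on 1 single-colour array, all on the same slide. The 4 cultures form 1 group (n = 4) by their titles, whereas the source names give a different nanotube number for replicates 2, 3 and 4. Unexposed cells were not analysed here, and the values describe exposed cells without showing what the nanotubes changed. NR8383 is a single line that grows partly attached and partly floating, which limits it as a model of macrophages in the lung.

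Rab proteins are small GTPases that mark membranes. Each is switched on by an exchange factor, which loads GTP, and off by a GTPase-activating protein, and the active form recruits tethers, motors and fusion factors to its compartment. In macrophages a swallowed particle lies first in a phagosome that carries RAB5 and later exchanges it for RAB7, which leads to fusion with lysosomes.

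The promoters of the 3 Rab5 genes and of Rab7a are shown because Rab5a and Rab7a are the standard markers of early and late endosomes and because only some of these genes were measured above background. A RefSeq promoter of build GRCr8, running from 250 bases before to 50 bases after the gene start, was matched for 44 of the 54 genes. Each is written 5′ to 3′ on the strand of the gene, with CpG dinucleotides in capitals. The windows are chr9:6720877-6721176 on the plus strand for Rab5a, chr7:1712687-1712986 on the minus strand for Rab5b, chr10:86166400-86166699 on the minus strand for Rab5c and chr4:122064136-122064435 on the minus strand for Rab7a.
Rab5a: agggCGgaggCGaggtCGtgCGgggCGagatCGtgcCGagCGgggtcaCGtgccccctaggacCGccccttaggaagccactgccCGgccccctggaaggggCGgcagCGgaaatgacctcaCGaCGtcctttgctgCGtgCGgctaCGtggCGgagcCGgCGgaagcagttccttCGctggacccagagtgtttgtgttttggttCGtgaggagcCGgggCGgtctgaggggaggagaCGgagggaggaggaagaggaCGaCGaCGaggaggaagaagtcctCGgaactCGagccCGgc
Rab5b: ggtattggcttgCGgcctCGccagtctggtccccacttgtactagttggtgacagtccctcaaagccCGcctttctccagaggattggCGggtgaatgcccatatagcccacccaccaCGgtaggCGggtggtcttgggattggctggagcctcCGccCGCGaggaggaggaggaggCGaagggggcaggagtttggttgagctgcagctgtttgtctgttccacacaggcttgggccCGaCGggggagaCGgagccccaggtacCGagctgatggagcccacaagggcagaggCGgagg
Rab5c: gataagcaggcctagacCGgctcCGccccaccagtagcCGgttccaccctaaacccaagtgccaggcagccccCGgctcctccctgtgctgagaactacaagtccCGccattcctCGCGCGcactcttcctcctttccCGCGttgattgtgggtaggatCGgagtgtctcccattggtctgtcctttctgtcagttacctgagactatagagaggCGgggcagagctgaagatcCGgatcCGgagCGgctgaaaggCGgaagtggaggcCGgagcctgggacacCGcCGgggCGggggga
Rab7a: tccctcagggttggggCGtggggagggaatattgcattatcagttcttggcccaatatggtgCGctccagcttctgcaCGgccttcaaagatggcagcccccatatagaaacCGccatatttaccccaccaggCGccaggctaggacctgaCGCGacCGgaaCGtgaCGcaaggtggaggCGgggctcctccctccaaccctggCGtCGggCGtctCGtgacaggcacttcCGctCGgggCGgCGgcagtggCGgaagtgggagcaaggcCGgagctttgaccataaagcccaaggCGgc

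CpG content did not follow detection within this set. The Rab5a promoter, whose gene was not well above background, held 32 CpG dinucleotides and 67.7% G and C. The Rab5b promoter held 15 CpG, that of Rab5c 20 and that of Rab7a 22, and all 3 genes were detected. Across Rab genes, the 33 matched promoters of detected genes had a median of 23 CpG and the 10 of genes detected on no array a median of 18. Among all named genes with a promoter, the medians were 21 for 6972 genes detected on all arrays and 6 for the 5906 others, which include genes detected on some arrays. This is a description, with no test.

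The motif TCACGTGA, the core of the element bound by TFEB, a transcription factor of lysosome genes, was searched on both strands, on which it reads the same. It was found in the promoter of 1 of 44 Rab genes (2.27%), against 0.909% of all 24206 promoters and 1.72% of those of all detected genes. That gene was Rab21, named after the search, at chr7:52814894-52815193 of GRCr8 on the minus strand, with the motif in capitals.
Rab21: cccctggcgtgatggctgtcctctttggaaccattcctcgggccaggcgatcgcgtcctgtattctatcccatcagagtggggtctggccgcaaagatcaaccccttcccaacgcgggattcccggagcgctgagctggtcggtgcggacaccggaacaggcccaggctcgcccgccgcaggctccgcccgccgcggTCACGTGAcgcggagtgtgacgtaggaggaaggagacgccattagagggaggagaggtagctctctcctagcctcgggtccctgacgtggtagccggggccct
The shorter motif CACGTG, which lies inside it, was present in 4 of 44 Rab promoters (9.09%) and in 6.74% of all promoters. Among detected genes its share was 9.09% of the 33 Rab promoters and 9.71% of all. Rab5a, Rab20, Rab21 and Rab31 held it.

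Most Rab genes were expressed above background in the exposed macrophages. By the scanner software's flag for a signal well above background, 39 of the 54 (72.2%) were detected on all 4 arrays, against 52.4% of all 16581 named genes. A further gene, Rab19, was detected on 1 array and 14 on none. A gene counted as detected if at least 1 of its probes was. Of the 13 Rab genes with several probes 12 were detected, and of the 41 with 1 probe 27. The share over all named genes was not matched for number of probes. In the 4 endosome and phagosome lists 23 of 29 genes (79.3%) were detected, and in the other lists 16 of 25 (64%). In bulk RNA, fewer cells that express a gene and less of its RNA per cell cannot be told apart.

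**Figure D1:**
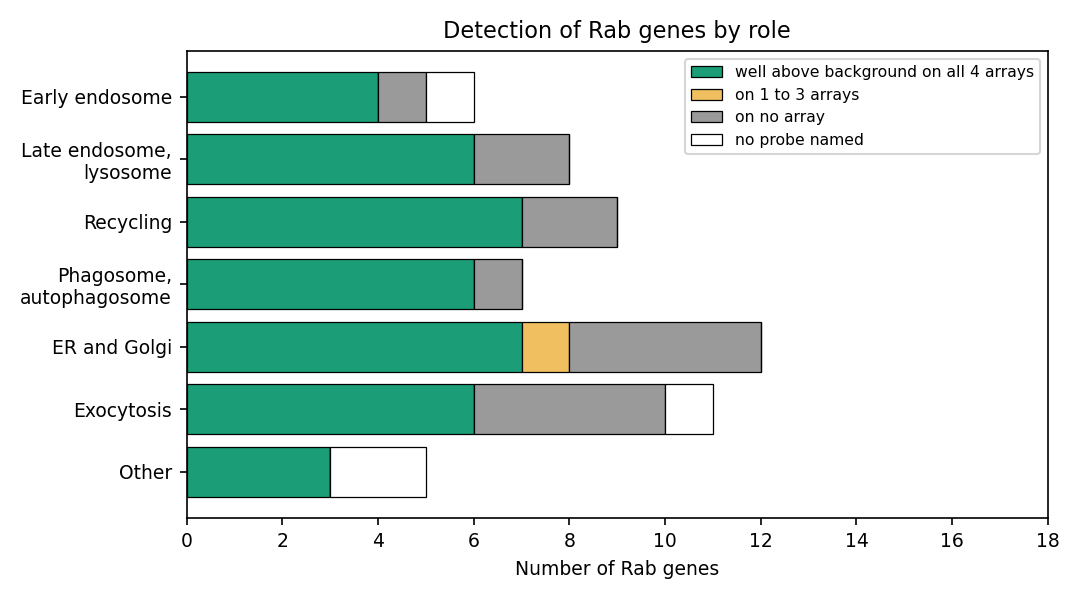
Number of Rab genes by the membrane on which their protein is best known, split by detection on the 4 arrays of exposed cells, with genes without a named probe in white. Between 4 and 7 genes of each list were detected on all arrays, except the list of other Rab genes with 3, and the genes detected on no array lie mostly in the ER and Golgi list and the exocytosis list, with 4 each.

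Paralogues of 1 Rab family were not always detected together. The same count was not made for families of other genes, so the numbers below are a description and not a trait of Rab families. In 13 families at least 2 lettered paralogues were measured, and in each of the 13 at least 1 was detected. All measured paralogues were detected in 7 families, those of Rab1, Rab2, Rab4, Rab7, Rab8, Rab11 and Rab40. In the other 6 only some were. These were Rab5b and Rab5c without Rab5a, Rab6a without Rab6b, Rab9a without Rab9b, Rab27a without Rab27b, Rab33b without Rab33a, and Rab3d without Rab3a, Rab3b and Rab3c. Rab3a and Rab6b are best known from neurons. Of 5 neuronal markers measured beside them, Syp, Snap25, Tubb3 and Syt1 were detected on no array and Rbfox3 on 1.

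The remaining genes detected on no array were Rab15, Rab17, Rab30, Rab36, Rab38 and Rab39a. RAB17 is known from polarised epithelium and RAB38 from pigment organelles. A looser flag, which asks only for a signal significantly above background, was set on all arrays for Rab3a and Rab33a, on some arrays for Rab5a, Rab27b, Rab30 and Rab36, and on none for the other 8 of the 14. Each gene was judged by its own probes, of which Rab27b has 3 and the other 13 genes 1 each.

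Macrophage markers were present. Of 12 macrophage markers 11 were detected on all arrays, all but Marco, and their summed level on the linear scaled scale was 64.5 to 73.6 across arrays. Of 24 markers of other cell types 4 were, namely Vwf and Cdh5 of endothelium, Mitf of melanocytes and Pax5 of B cells. The defining epithelial markers Epcam, Cdh1, Sftpc, Krt8 and Krt18 were all below detection on every array, with a summed level of 0.00802 to 0.0236. The looser flag was set for Sftpc on 3 arrays and for Krt8 on 2, and on none for Epcam, Cdh1 and Krt18. The summed level was 0.0099 to 0.0167 for neuronal and 0.0137 to 0.0208 for fibroblast markers. For the lists with detected members it was 1.7 to 2.13 for endothelium, 0.461 to 0.716 for melanocytes and 0.11 to 0.18 for lymphocytes. Gene levels as defined below give a smaller endothelial sum. In log2 units on replicates 1 to 4, Vwf was at -1.23, -1.48, -1.35 and -1.24 and Cdh5 at -5.71, -5.36, -5.67 and -5.21. The sums are therefore rough and are not compared between lists. The arrays detected 8932 to 9311 genes each. They differed in brightness, with a 75th percentile signal of detected probes of 1756, 2631, 2861 and 1873 on replicates 1 to 4.

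Levels are given below as log2 of the processed signal relative to that 75th percentile, on replicates 1 to 4 in turn, with mean ± SD (n = 4). They describe a gene's probes, which differ in their binding, and are not compared between genes.

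Rab5a, the best-known regulator of early endosome fusion, was not well above background on any array. Its processed signal was 3.88, 5.48, 4.42 and 3.88, while the median of 308 negative control spots was 3.85, 3.64, 4.16 and 3.73. Only on replicate 2 did it pass the 95th percentile of those spots, which was 5.06 there. A single probe reads the gene, so this is a statement about that probe's signal. Its paralogues were far above background. Rab5b had a processed signal of 2040, 2920, 3240 and 2690, and Rab5c one of 3660, 5580, 6200 and 4010. Replicates 2 and 3, the brighter arrays, gave the higher signals before scaling.

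**Figure D2:**
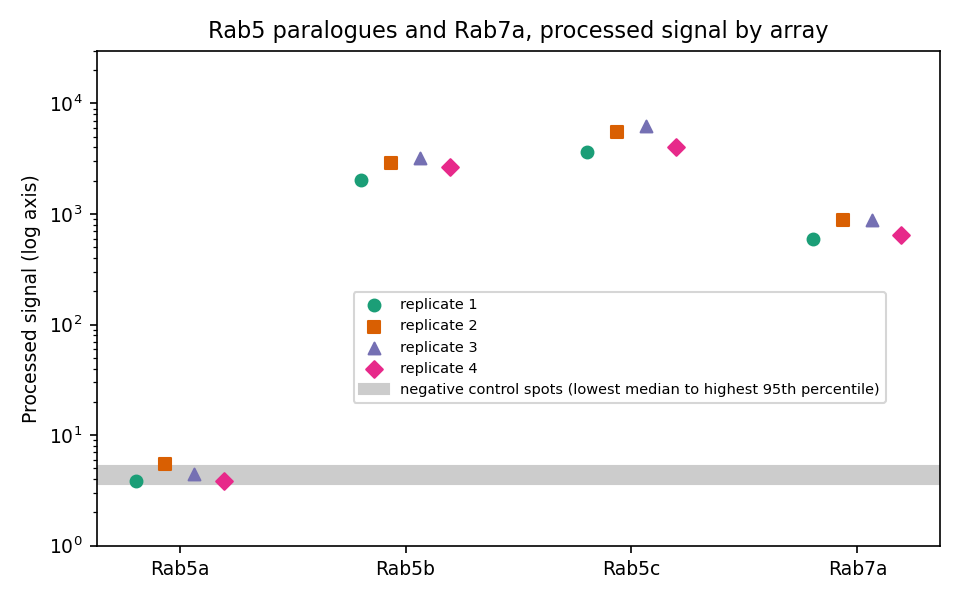
Processed signal on a log axis for the single probes of Rab5a, Rab5b, Rab5c and Rab7a on each of the 4 arrays, with a grey band from the lowest median (3.64) to the highest 95th percentile (5.30) of the negative control spots. Rab5a lies in or just above the band on every array, and the other 3 genes lie at 596 or more; heights of different probes are not comparable.

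After scaling, Rab5c was at 1.06, 1.09, 1.12 and 1.1 (1.09 ± 0.02). It was among the most even Rab genes, with its highest and lowest arrays 1.04-fold apart. Rab5b was at 0.22, 0.15, 0.18 and 0.52 (0.27 ± 0.17). Replicate 4 stood above the other 3, and without it the largest difference between arrays fell from 0.37 to 0.06.

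The other early endosome genes were closely matched between cultures. Rab21, whose protein acts in integrin uptake, was at -1.27, -1.22, -1.24 and -1.13 (-1.22 ± 0.06). Rab31, a paralogue of Rab22a that acts between the Golgi and endosomes, was at 1.38, 1.43, 1.46 and 1.40 (1.42 ± 0.03). The highest and lowest arrays were 1.1-fold apart for Rab21 and 1.05-fold apart for Rab31.

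Rab7a, which directs late endosomes and phagosomes to lysosomes, was detected on all 4 arrays, with a processed signal of 596, 891, 879 and 641. Scaled, it was at -1.56, -1.56, -1.70 and -1.55 (-1.59 ± 0.07). Replicate 3 was the lowest, and the other 3 cultures lay within 0.02 of one another. Rab7b, a relative linked to traffic from endosomes to the Golgi, was at -3.82, -3.63, -3.69 and -3.70 (-3.71 ± 0.08), its pair of probes 1.45 apart. On replicate 3 the brighter probe was at its lowest (-3.19) and the dimmer at its highest (-4.2). Their SDs were 0.15 and 0.21, so the mean was more even than either probe. Both Rab7 genes were therefore detected, unlike the early endosome marker Rab5a.

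Rab9a, which returns mannose 6-phosphate receptors from late endosomes to the Golgi, was at -4.22, -4.41, -4.65 and -4.43 (-4.43 ± 0.17), highest on replicate 1 and lowest on replicate 3. Its paralogue Rab9b was below detection, with a processed signal of 3.75, 3.30, 3.83 and 3.39. Rab12, which routes the transferrin receptor to lysosomes, was at -2.35, -2.67, -2.71 and -2.55 (-2.57 ± 0.16). Its 2 probes lay 4.28 apart, and the dimmer of them carried most of the spread, with an SD of 0.31 against 0.05.

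Genes of lysosome-related organelles differed in detection. Rab29, a partner of the kinase LRRK2 at stressed lysosomes, was at 1.21, 1.13, 1.05 and 0.99 (1.1 ± 0.10). Rab32, which acts with RAB38 in pigment cells and also on phagosomes, was at -1.98, -1.90, -1.94 and -1.75 (-1.89 ± 0.10). Rab38 itself was not detected, at a processed signal of 4.89, 4.53, 5.06 and 4.23, and of the pigment cell markers Tyr was detected on 1 array and Mitf on all 4.

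Recycling endosome genes were detected for 7 of 9 members, where 52.4% of all named genes were. The largest SD among the 7 was 0.11, that of Rab4b. Their median was 0.066, against 0.0926 over all detected genes. Levels of Rab4b, Rab11a, Rab14 and Rab35 are means of several probes. Rab4a, of the fast recycling route, was at -0.46, -0.61, -0.57 and -0.67 (-0.58 ± 0.09). Rab4b, its paralogue, was at 0.54, 0.32, 0.40 and 0.29 (0.39 ± 0.11). Both were highest on replicate 1 and lowest on replicate 4.

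The slow recycling route is run by RAB11 proteins. Rab11a was at -1.49, -1.53, -1.61 and -1.56 (-1.55 ± 0.05), although its pair of probes lay 5.22 apart. Rab11b was at -1.54, -1.51, -1.46 and -1.47 (-1.50 ± 0.04). Replicate 1 was the highest array for Rab11a and the lowest for Rab11b, in both cases by differences of at most 1.08-fold. For Rab11a this came from the dimmer probe, at -4.02, -4.17, -4.29 and -4.16. The brighter was at 1.04, 1.1, 1.07 and 1.04, not highest on replicate 1.

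Rab14, which acts on recycling endosomes and delays phagosome maturation, was at 0.53, 0.59, 0.61 and 0.67 (0.60 ± 0.05) as the mean of 3 probes. Rab35, of a recycling route to the cell surface and of phagocytic cups, was at -1.15, -1.03, -1.01 and -1.11 (-1.07 ± 0.07). Its 2 probes were the farthest apart of any Rab gene, by 7.95, at means of 2.90 and -5.05, and each was even between arrays, with SDs of 0.08 and 0.07. The gene's mean level is thus set by how its probes are combined, while its evenness between cultures is seen in each.

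Rab25, a RAB11 relative best known from epithelium, was detected on all arrays at -4.64, -4.78, -4.76 and -4.76 (-4.73 ± 0.07). None of the 5 epithelial markers was well above background beside it, although Sftpc and Krt8 passed the looser flag on some arrays. Rab15, known from neuronal recycling endosomes, was below detection at a mean processed signal of 5.58, 3.94, 4.27 and 3.82. Rab17 was too, at 4.43, 4.59, 5.10 and 5.08. The probe of Rab15 is printed 10 times per array, and 0 of its usable spots passed the detection flag on any array. The mean of 5.58 on replicate 1 includes 1 outlier spot. Scaled and without that spot, the level of Rab15 was -8.81, -9.4, -9.39 and -8.94.

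In the phagosome and autophagosome list 6 of 7 genes were detected. Rab10, which brings receptors such as TLR4 to the surface of macrophages, was the most even of all 39, at -1.92, -1.92, -1.93 and -1.90 (-1.92 ± 0.01). Rab20, linked to phagosome maturation, was at -0.80, -0.83, -0.84 and -0.96 (-0.86 ± 0.07). Rab43, found on phagosomes and the Golgi, was at -1.66, -1.68, -1.51 and -1.69 (-1.64 ± 0.08), with replicate 3 above the others.

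Rab24, of autophagy, was at 0.31, 0.54, 0.50 and 0.30 (0.41 ± 0.13). It was the same on replicates 1 and 4 to within 0.02 and higher on replicates 2 and 3, the brighter arrays. Rab23, known from Hedgehog signalling and from phagosomes, was at -3.58, -3.43, -3.67 and -3.65 (-3.58 ± 0.11). Its probes disagreed: the second was well above background on 2 arrays, at -6.66 on replicate 2 and -6.85 on replicate 3, and not on replicates 1 and 4. Rab39a was not detected, at a processed signal of 3.65, 3.24, 3.83 and 3.37.

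Rab34, which acts in macropinocytosis and in the fusion of phagosomes with lysosomes, was near the limit of detection. It was the only detected Rab gene within 1 log2 unit of an array's lowest detected level, and no other came nearer than 2.12. Its level was -6.32, -5.72, -6.12 and -6.38 (-6.13 ± 0.30), with mean processed signals of 22.8, 50.0, 41.9 and 23.0. Of its 10 spots, 8 passed the detection flag on replicates 1 and 4 and all 10 on replicates 2 and 3.

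Rab34 was also the only detected Rab gene with a probe printed more than 1 time per array. It could therefore be tested for differences between arrays over replicate spots, by limma's moderated F test. The arrays differed by up to 0.66, or 1.57-fold, with a spot SD of 0.31 (limma adjusted p = 3.34e-04). Among all 1742 probes tested, 42.6% passed, so a call is common. Without replicate 2 the largest difference was 0.26 and did not pass (limma adjusted p = 0.311), and with another background correction the difference was 0.38 (limma adjusted p = 4.31e-05, the lowest over its alternatives). Spots are technical repeats on 1 array per culture, so culture and array cannot be told apart.

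**Figure D3:**
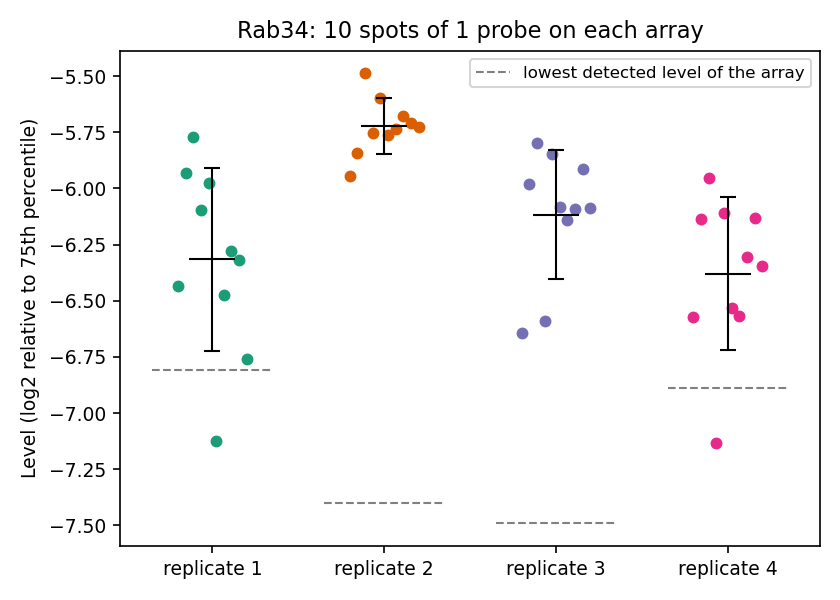
Level of Rab34 in each of 10 spots of its probe on each array, as log2 relative to the array's 75th percentile, with black bars for mean ± SD over spots and dashed lines for the lowest detected level of the array. Replicate 2 has the highest mean (-5.72) and the tightest spots (SD 0.12), and 1 spot on each of replicates 1 and 4 lies below the dashed line.

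Genes of the early secretory route included the most variable Rab gene. Rab2a, whose protein acts between the endoplasmic reticulum and the Golgi and also on late endosomes, was at 0.47, 1.24, 1.18 and 1.21 (1.02 ± 0.37). Replicate 1 was lower than the other 3, which lay within 0.07 of one another. Before scaling, the processed signal of Rab2a was 2430 on replicate 1, against 6220, 6500 and 4320 on replicates 2, 3 and 4. Replicate 1 was also the dimmest array, with a 75th percentile signal of 1756 against 1873 on replicate 4, the next dimmest. Rab2a was read by 1 spot per array, which was not marked as an outlier on any. Its paralogue Rab2b was at -3.14, -3.04, -3.06 and -3.25 (-3.12 ± 0.10), with no drop on replicate 1.

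Rab6a, of traffic within and from the Golgi, had the third largest SD, at -2.77, -2.97, -3.04 and -2.55 (-2.83 ± 0.22). Replicate 4 was the highest, and without it the largest difference fell from 0.48 to 0.27. The other 5 detected genes of this list, Rab1a, Rab1b, Rab18, Rab2b and Rab33b, had SDs of 0.056 to 0.097. Rab19 was at -5.58 on replicate 4, where it was detected, with a processed signal of 39.2. On replicates 1, 2 and 3 its processed signal was 3.18, 3.57 and 3.67, at the level of the negative controls.

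Exocytosis genes were detected for 6 of 10 members, with SDs of 0.041 to 0.17. Rab27a, needed for the release of lysosome-related granules, had an SD of 0.041 and Rab8a, which acts in surface delivery and at macrophage ruffles, one of 0.082. Rab3d, Rab8b, Rab13 and Rab26 were the others detected. Rab28, Rab40b and Rab40c, of the last list, were all detected, with SDs of 0.042 to 0.10.

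**Figure D4:**
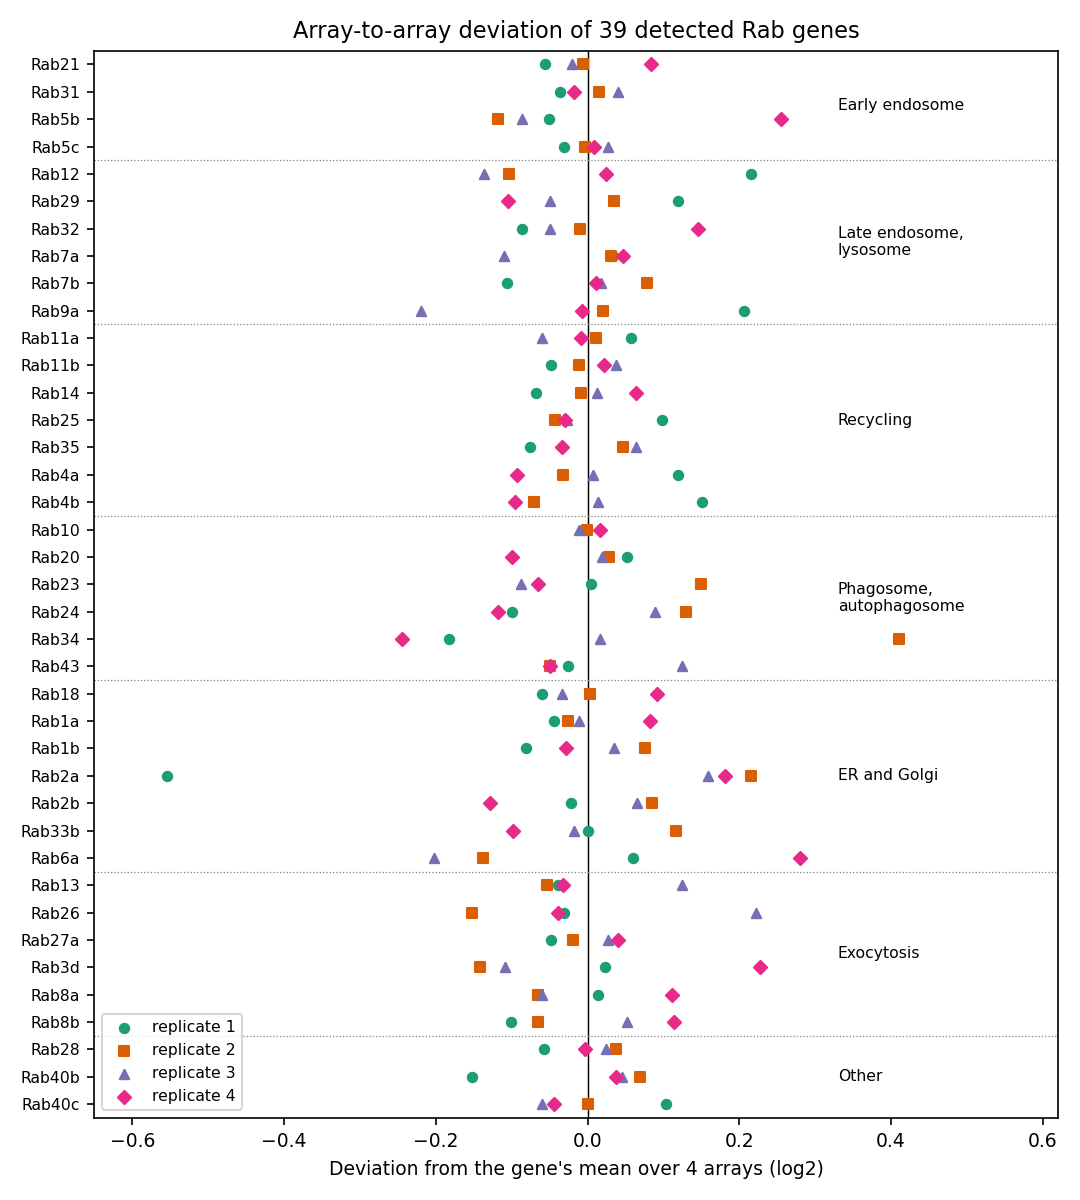
Deviation of each of the 39 detected Rab genes on each array from the gene's own mean over the 4 arrays, in log2 units, grouped by role. Most points lie close to the line at 0; Rab2a on replicate 1 and Rab34 on replicate 2 stand farthest from it.

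As a group the detected Rab genes were about as even between cultures as all detected genes. Their median SD was 0.0831 on the log2 scale, or 1.06-fold, against 0.0926 over all 8685 detected genes, and 0 of 39 spanned over 2-fold, against 1.11% of all detected genes. An SD under 0.1 was found for 25 of 39 (64.1%), against 54.9% of all. At the median SD the 95% confidence interval of a mean over 4 arrays was ± 0.13. By role the median SD ran from 0.047 in the 4 early endosome genes to 0.10 in the 6 late endosome and lysosome genes. With 4 arrays these values are imprecise, and no test was made of them. The set of all detected genes was not matched to the Rab genes for level.

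**Figure D5:**
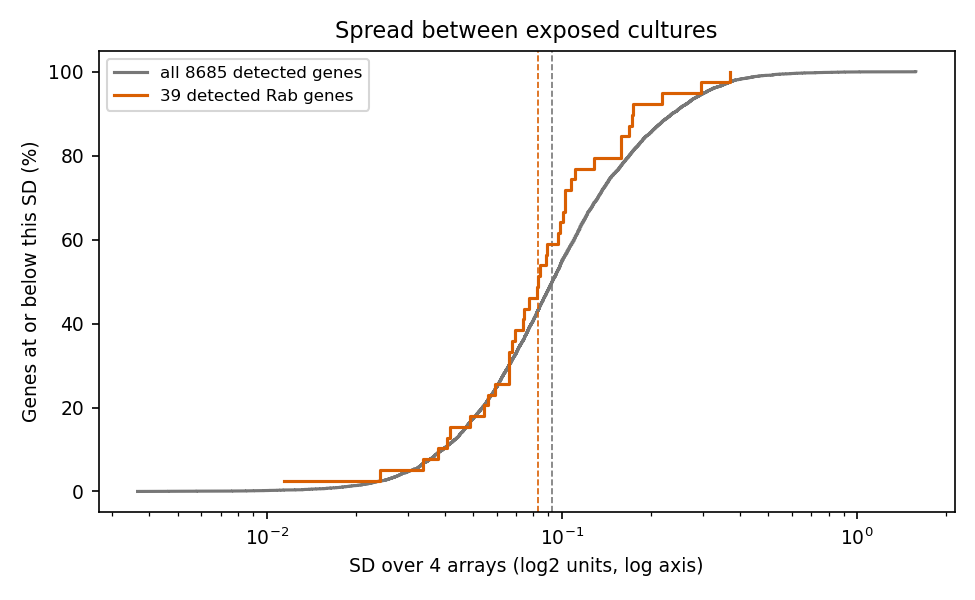
Cumulative share of genes, in percent, by SD over the 4 arrays on a log axis, for the 39 detected Rab genes and all 8685 detected genes, with dashed lines at the medians (0.0831 and 0.0926). The curves run close together, and the Rab curve ends at 0.371, the SD of Rab2a.

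No array was high or low for all Rab genes. Replicate 1 was the lowest array for 16 of 39 (41%), where 30.8% of all detected genes had their lowest value, and replicate 4 was the highest for 13 of 39 (33.3%), against 29.4% of all. Rab genes deviated by a median of -0.031 on replicate 1, against -0.0066 over all detected genes. Genes that were highest on that same array included Rab4a, Rab4b, Rab9a, Rab11a and Rab12 of the endosome lists. For Rab11a and Rab12 this held for the mean of the probes and the dimmer probe, and not for the brighter.

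The machinery that acts on Rab proteins was detected almost throughout. Of 78 genes in 7 lists, 59 had a probe and 54 of those (91.5%) were detected on all arrays, against 52.4% of all named genes. Their median SD was 0.0798, and 0 spanned over 2-fold. These lists were written from general knowledge, with earlier results of these data known, and hold mostly widely expressed genes. Their share is a description and not a test. Counts for each list below are of members with a probe.

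Genes for the lipid modification and recovery of Rab proteins were detected for 8 of 8 members. Rabac1, a receptor for prenylated Rab proteins, was the most even, at 0.96, 0.84, 0.92 and 0.90 (0.90 ± 0.05). Chm, which encodes the escort protein that presents new Rab proteins for prenylation, was the least even, at -4.29, -5.01, -4.36 and -4.37 (-4.51 ± 0.34), with replicate 2 below the rest.

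Activators and effectors of RAB5 were detected for 10 of 11 members. Pik3c3, the lipid kinase that makes the early endosome lipid PI3P, was at -0.73, -0.79, -0.74 and -0.74 (-0.75 ± 0.03). Rbsn, a RAB5 effector that binds this lipid, was at -5.68, -5.14, -5.18 and -5.36 (-5.34 ± 0.25), lowest on replicate 1. Rin1, an exchange factor for RAB5, was detected on no array, while its relatives Rin2 and Rin3 were detected on all.

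Activators and effectors of RAB7 were detected for 8 of 8 members. Osbpl1a, a cholesterol-sensing effector, was at -1.70, -1.76, -1.68 and -1.67 (-1.70 ± 0.04). Vps35, the retromer subunit that RAB7 recruits, was at -2.86, -3.19, -3.07 and -2.38 (-2.87 ± 0.36), highest on replicate 4. Genes of the HOPS and CORVET tether list were detected for 7 of 7 members, and no probe was named for Vps41 and Vps8. Tgfbrap1, a CORVET subunit, was at 0.17, 0.21, 0.14 and 0.11 (0.16 ± 0.04). Vps16, a core subunit of both tethers, was at -3.53, -3.45, -3.42 and -3.78 (-3.55 ± 0.16), lowest on replicate 4.

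Effectors of RAB11 were the exception among the lists. Probes were named for 3 of them, and 0 of the 3 passed on all arrays: Rab11fip1 and Rab11fip2 were detected on no array and Rab11fip4 on 1, although Rab11a and Rab11b were both detected. With the looser flag Rab11fip4 was above background on 4 arrays, Rab11fip2 on 3 and Rab11fip1 on 2. No probe was named for Rab11fip3 and Rab11fip5.

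GTPase-activating proteins for Rab proteins were detected for 12 of 13 members. Tbc1d10b was the most even, at 1.65, 1.58, 1.64 and 1.59 (1.61 ± 0.04). Evi5 was the least even, at -5.14, -5.42, -5.54 and -5.12 (-5.31 ± 0.21), lower on replicates 2 and 3. Rabgap1l was detected on no array, and on 4 with the looser flag. SNAREs, the fusion proteins of endosomes and phagosomes, were detected for 9 of 9 members. Vamp3, of recycling endosomes, was at 0.89, 0.94, 0.97 and 0.89 (0.92 ± 0.04), and Vamp7, of late endosomes, was at -0.63, -0.31, -0.24 and -0.42 (-0.40 ± 0.17).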

How the data were processed

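Total RNA of 4 exposed cultures was labelled with Cy3 and read on 1 array each. Scans were quantified spot by spot with Agilent Feature Extraction (version 11.0.1.1, per the submitters' processing notes). The deposited processed signal is a linear intensity from which background had been subtracted and spatial trends removed, per the file headers. Raw median spot and background intensities and flags of 0 or 1, as deposited, were also used.

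Control spots and, per array, 427 to 714 outlier spots were left out, and log2 signals of a probe's spots were averaged. The processed signals quoted are linear means over all spots of a probe, outlier spots included. A probe counted as detected if the well-above-background flag was set on over 50% of its spots (40.8% to 43.7% of 45598 probes). Scaling used each array's 75th percentile among the 17807 probes that all arrays detected. Probes were named by RefSeq accession through a gene table of assembly GRCr8 (21109 probes, 46.3%). A gene's level is the mean of its detected probes. Files were compared, and no spot had an identical processed signal on 2 arrays.

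The spot test was limma 3.58.1 in R 4.3.3, by the moderated F test with Benjamini-Hochberg adjustment and a threshold of 0.05 over 1742 probes printed at least 2 times, and it was tested on simulated data. With 1 group no comparison between groups was tested, and single arrays set apart were sought with Dixon's ratio. Coordinates are given for promoter windows only, since the array design uses an older build. Members and lists were chosen with earlier results of these data known. Values on every array (processed signals where a gene was not detected) are given for measured genes of the endosome and phagosome lists, the 5 largest SDs, genes detected on some arrays and the list members of smallest and largest SD. Alternatives were normexp correction (offset 50) of the median signals, other scalings, the looser flag, detection required on 3 arrays, 1 probe per gene (the brightest), outlier spots kept, no filter on dim probes, and each replicate left out. Figures were drawn with matplotlib 3.10.9.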

Additional observations from a re-analysis of the deposited data

Results flagged for a closer look

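Dixon's ratio, with its 95% critical value for 4 samples, was used to look for 1 array set apart from the other 3. Of the 39 detected Rab genes 6 passed it, where chance gives about 1.95 for independent genes. The share over all detected genes was not computed and all genes share the 4 arrays, so the 6 are not read as an excess. The ratio was also applied to Rab19 and to 12 regulators, which had been picked by their detection or spread. No count is therefore read from Rab19 and Chm, which passed too. The ratio is the gap to the nearest array over the whole range, so it can be high where all values are close. Rab2a (ratio 0.926) was lower on replicate 1 by the widest margin of the detected genes, at 0.47 against 1.18 to 1.24, and without that array its largest difference was 0.07. Chm (0.887) was lower on replicate 2, at -5.01 against -4.37 to -4.29. Rab19 (0.876) was detected on replicate 4 alone. The other 5 Rab genes spanned 0.22 or less. Rab7a (0.902) was lower on replicate 3, and Rab13 (0.886) and Rab43 (0.865) were higher there. Rab40b (0.861) was lower and Rab25 (0.891) higher on replicate 1.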

How the results depend on the processing

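No paired analysis was possible because the samples form 1 group. The number of Rab genes detected on all arrays was 39 under each alternative run but the looser flag, where it was 41, and 39 to 39 with a replicate left out. That of regulators was 54 to 54 with a replicate left out and 56 with the looser flag. Detection rests on flags alone, so background correction and scaling cannot change these counts, and leaving out a replicate cannot lower them. The median SD was 0.0816 to 0.0898 except for 0.102 with no filter on dim probes, and 0.0669 to 0.0887 with a replicate left out, lowest without replicate 1. Rab genes spanning over 2-fold numbered 2 with the looser flag, 4 with no filter, and 0 to 0 with a replicate left out. The spot test called 3 of 3 Rab probes with no filter, which adds probes of Rab15 and Rab6b that are not above background, and 0 to 1 with a replicate left out, 0 without replicate 2. For the 39 genes, the largest difference between arrays moved by over 1 SD in 10 with normexp correction, 7 with the brightest probe, 2 with scaling over all probes, and 0 with median centring, quantile normalization or outlier spots kept. It moved so in 12, 3, 6 and 10 without replicates 1 to 4. Levels moved by over 1 SD in all 39 genes with scaling over all probes and with median centring, which set another zero, in 28 with normexp correction (Rab34 from -6.13 to -4.5), in 11 with the brightest probe (Rab35 from -1.07 to 2.9), in 19, 0, 1 and 5 without replicates 1 to 4, and in 0 with quantile normalization or outlier spots kept. Among the 39 genes Rab2a had the largest difference under these alternatives except without replicate 1, where Rab34 had it (0.66). Signal over background limits Rab34 and the genes not detected.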
